A study of Mus musculus with 4 samples.

Results

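Inhibitory checkpoint receptors are surface proteins that restrain T and NK cells, and the group described here holds 9 genes, Pdcd1, Lag3, Tigit, Havcr2, Ctla4, Cd160, Cd244a, Btla and Entpd1. They were taken by gene symbol, each matched exactly 1 row of the deposited matrices, and together they are 9 of 32285 gene rows. The study asked how miR-146a and the chemokine gene Ccl5 shape liver cancer in mice, and its single-cell data count transcripts as unique molecular identifiers (UMIs) in CD45+ immune cells sorted from liver. There are 4 libraries from female C57BL/6 mice, 1 per group, made with the 10x Genomics 5′ chemistry, and how many mice each was made from is nowhere stated. The young WT library comes from untreated wild-type mice aged 8 weeks by the labels. The WT, miR-146a-/- and miR-146a-/- Ccl5-/- (DKO) libraries come from mice aged 36 weeks by the labels. These 3 groups had received diethylnitrosamine (DEN), a liver carcinogen, at 25 mg/kg into the peritoneum on day 14 of life, and a choline-deficient high-fat diet (CDHFD) from weaning on day 21. WT and young WT mice thus differ in age, carcinogen and diet together, and these cannot be told apart. With 1 library per group there is no replicate error and no test was made. All intervals below are exact 95% intervals, or Newcombe's for differences of shares, and cover counting error only.

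Activated T cells place these receptors on their surface, where ligands on antigen-presenting, tumor or stromal cells dampen signals from the antigen receptor. Under lasting antigen exposure, as in chronic infection and tumors, several of them stay on together, a state known as exhaustion that the transcription factor Tox helps to set up. Liver lymphocytes, resident innate ones included, are known to carry some of these receptors without disease, and antibodies against PD-1, the product of Pdcd1, and CTLA-4 are used to treat liver cancer.

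The libraries held 10985 cells (young WT), 9120 (WT), 8393 (miR-146a-/-) and 10623 (DKO), with 90756272, 103165826, 88706063 and 103147246 UMIs. After limits on features and mitochondrial share, 10283, 8329, 7824 and 9850 cells were kept, at medians of 6782, 8210, 7910 and 7558 UMIs. A UMI of Ptprc, the gene of CD45, was found in 98.4%, 97.9%, 98.1% and 98.2% of kept cells. Ccl5 stood at 65.4 CPM, the usual scale of counts relative to all UMIs, in the DKO library and between 6174 and 12544 CPM in the others, in keeping with the labelled deletion, while the matrices have no row for miR-146a, so that its loss could not be checked. Between 96 and 127 cell barcodes were shared by any pair of libraries, and 648 occurred in more than 1 library.

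The absent microRNA in the miR-146a-/- and DKO groups is shown here so that the genotype can be read as a sequence. Its mature strand is taken from RefSeq, with the seed, bases 2 to 8 of its 22, in capitals.
miR-146a-5p: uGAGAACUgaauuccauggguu

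T and NK cells were gated on marker transcripts, none of them one of the 9 genes, into 8 classes that hold 5205, 3520, 3720 and 3645 cells in the order young WT, WT, miR-146a-/- and DKO, which is used throughout. All of the 4 or 5 check markers of each class lay above the median of the other classes. These include B and myeloid cells, so the check does not set T and NK classes apart from each other. Some markers were higher in another class, such as Klrb1c (247 CPM in NKT-like, 937 in NK cells) and Tcrg-C4 (132 in gamma-delta T cells, 276 in ILC1). Others, such as Tcrg-C1 in gamma-delta T cells (83.9 CPM, at most 66.2 elsewhere), were highest in their own class. Most of what follows concerns non-naive CD8 T cells, CD8 T cells outside the naive-like class, which needs UMIs of naive-cell markers such as Ccr7 and Lef1 and none of Gzmk, Gzmb and Cxcr6. They number 1209, 1900, 2217 and 1918 cells with median depths of 7366, 7267, 6928 and 6066 UMIs. To compare shares of cells at equal depth, 2000 UMIs were drawn at random from every cell, which leaves out 21, 20, 18 and 15 shallower cells.

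Pdcd1 encodes PD-1, which recruits phosphatases to the antigen receptor when bound by its ligands. In non-naive CD8 T cells its levels were 63.0 CPM (58.2 to 68.0), 413 CPM (403 to 423), 361 CPM (352 to 369.7) and 325 CPM (315 to 334). A UMI of Pdcd1 was found in 12.5%, 45.3%, 45.0% and 41.3% of thinned cells, and in 28.0%, 67.3%, 67.1% and 64.3% without thinning. Young WT cells were low and the 3 treated libraries high and close together. B cells, which served as the class that should hold little Pdcd1 beyond free RNA, had a UMI in 0.181%, 0.1597% and 0.310% of thinned cells in young WT, WT and DKO mice. In miR-146a-/- mice it was 0 of 426 B cells, which allows a share of up to 0.862%. Their median depths were 5646, 6771, 6971.5 and 6555 UMIs, near those of the CD8 cells, so Pdcd1 in non-naive CD8 T cells stood far above this background in each library.

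Lag3, whose product binds MHC class II, separated the libraries in another way. Its levels were 53.8, 409, 350.3 and 148 CPM, and a UMI was found in 10.7%, 39.7%, 39.6% and 22.2% of thinned cells (24.8%, 64.1%, 61.7% and 46.5% unthinned). DKO cells thus lay between young WT cells and the other 2 libraries, with intervals that do not overlap. In B cells the share was 0.543%, 0.799%, 0.939% and 0.310%.

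Tigit encodes a receptor for the poliovirus receptor PVR and related nectins. Its level was 118, 554, 338 and 353 CPM, in 21.9%, 56.1%, 45.2% and 47.9% of thinned cells (45.8%, 78.9%, 72.5% and 76.2% unthinned). Havcr2 encodes TIM-3, a receptor of exhausted T cells that dendritic cells also carry. It stood at 10.4, 150.1, 69.1 and 57.2 CPM, in 2.27%, 22.0%, 11.4% and 8.99% of thinned cells (6.37%, 46.6%, 26.4% and 21.2% unthinned). For both genes WT was the highest library and young WT the lowest, with miR-146a-/- and DKO between. B cells had shares of 0.235% to 0.815% for Tigit and at most 0.319% for Havcr2, which was found in 0 of 426 thinned B cells in miR-146a-/- and 0 of 645 in DKO mice (up to 0.862% and 0.570%).

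Ctla4, whose product outcompetes CD28 for the ligands CD80 and CD86, set WT apart from all other libraries. Its levels were 70.5 CPM (65.5 to 75.8), 416 CPM (406 to 426), 98.0 CPM (93.4 to 102.7) and 142 CPM (136 to 148). The thinned shares were 10.7%, 43.2%, 14.0% and 18.7% (23.2%, 64.3%, 30.3% and 34.6% unthinned). B cells had Ctla4 in 1.36%, 2.08%, 0.704% and 0.930% of thinned cells, with WT again the highest library, at far lower shares.

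Cd160 encodes a receptor of cytotoxic lymphocytes for the TNF receptor family member HVEM, and Cd244a a receptor of the SLAM family for CD48. Cd160 ran against the genes above, with 341, 178, 291 and 292 CPM in 38.0%, 21.7%, 38.2% and 34.9% of thinned cells (59.7%, 39.7%, 64.0% and 57.0% unthinned). Cd244a had 64.2, 45.8, 106 and 74.3 CPM in 12.9%, 7.98%, 19.2% and 14.1% of thinned cells (28.5%, 22.7%, 41.3% and 29.9% unthinned). WT was the lowest library for both, and their B cell shares were at most 0.996% and 2.02%.

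Btla, another receptor for HVEM, and Entpd1, the gene of the ectoenzyme CD39 that degrades extracellular ATP, complete the group. Btla had only 22.3, 12.6, 13.6 and 11.2 CPM in 4.21%, 1.91%, 2.23% and 1.94% of thinned cells (14.9%, 8.58%, 8.34% and 6.67% unthinned). B cells carry Btla themselves, with 33.1% to 43.9% of thinned cells, so NK cells served for comparison, with 1 thinned cell of 490 (0.204%) in WT and 0 of 782, 362 and 480 in the others (up to 0.471%, 1.01% and 0.766%). Entpd1 had 64.6, 139, 119 and 112 CPM in 13.6%, 24.6%, 22.0% and 21.1% of thinned cells (35.1%, 57.4%, 51.4% and 46.2% unthinned), against 5.62%, 3.04%, 4.93% and 4.496% of B cells. The plan had named other classes for comparison. For Btla these were neutrophils, with only 16, 15, 11 and 25 thinned cells. For Entpd1 they were naive-like CD8 T cells, with 4.37 to 6.67 CPM. Markers of B cells (all 4 of 4 found, Ighm the most abundant) summed to 126, 64.9, 69.8 and 79.0 CPM in non-naive CD8 T cells, highest in young WT as Btla was, and their part in the Btla levels was not tested.

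**Figure D1:**
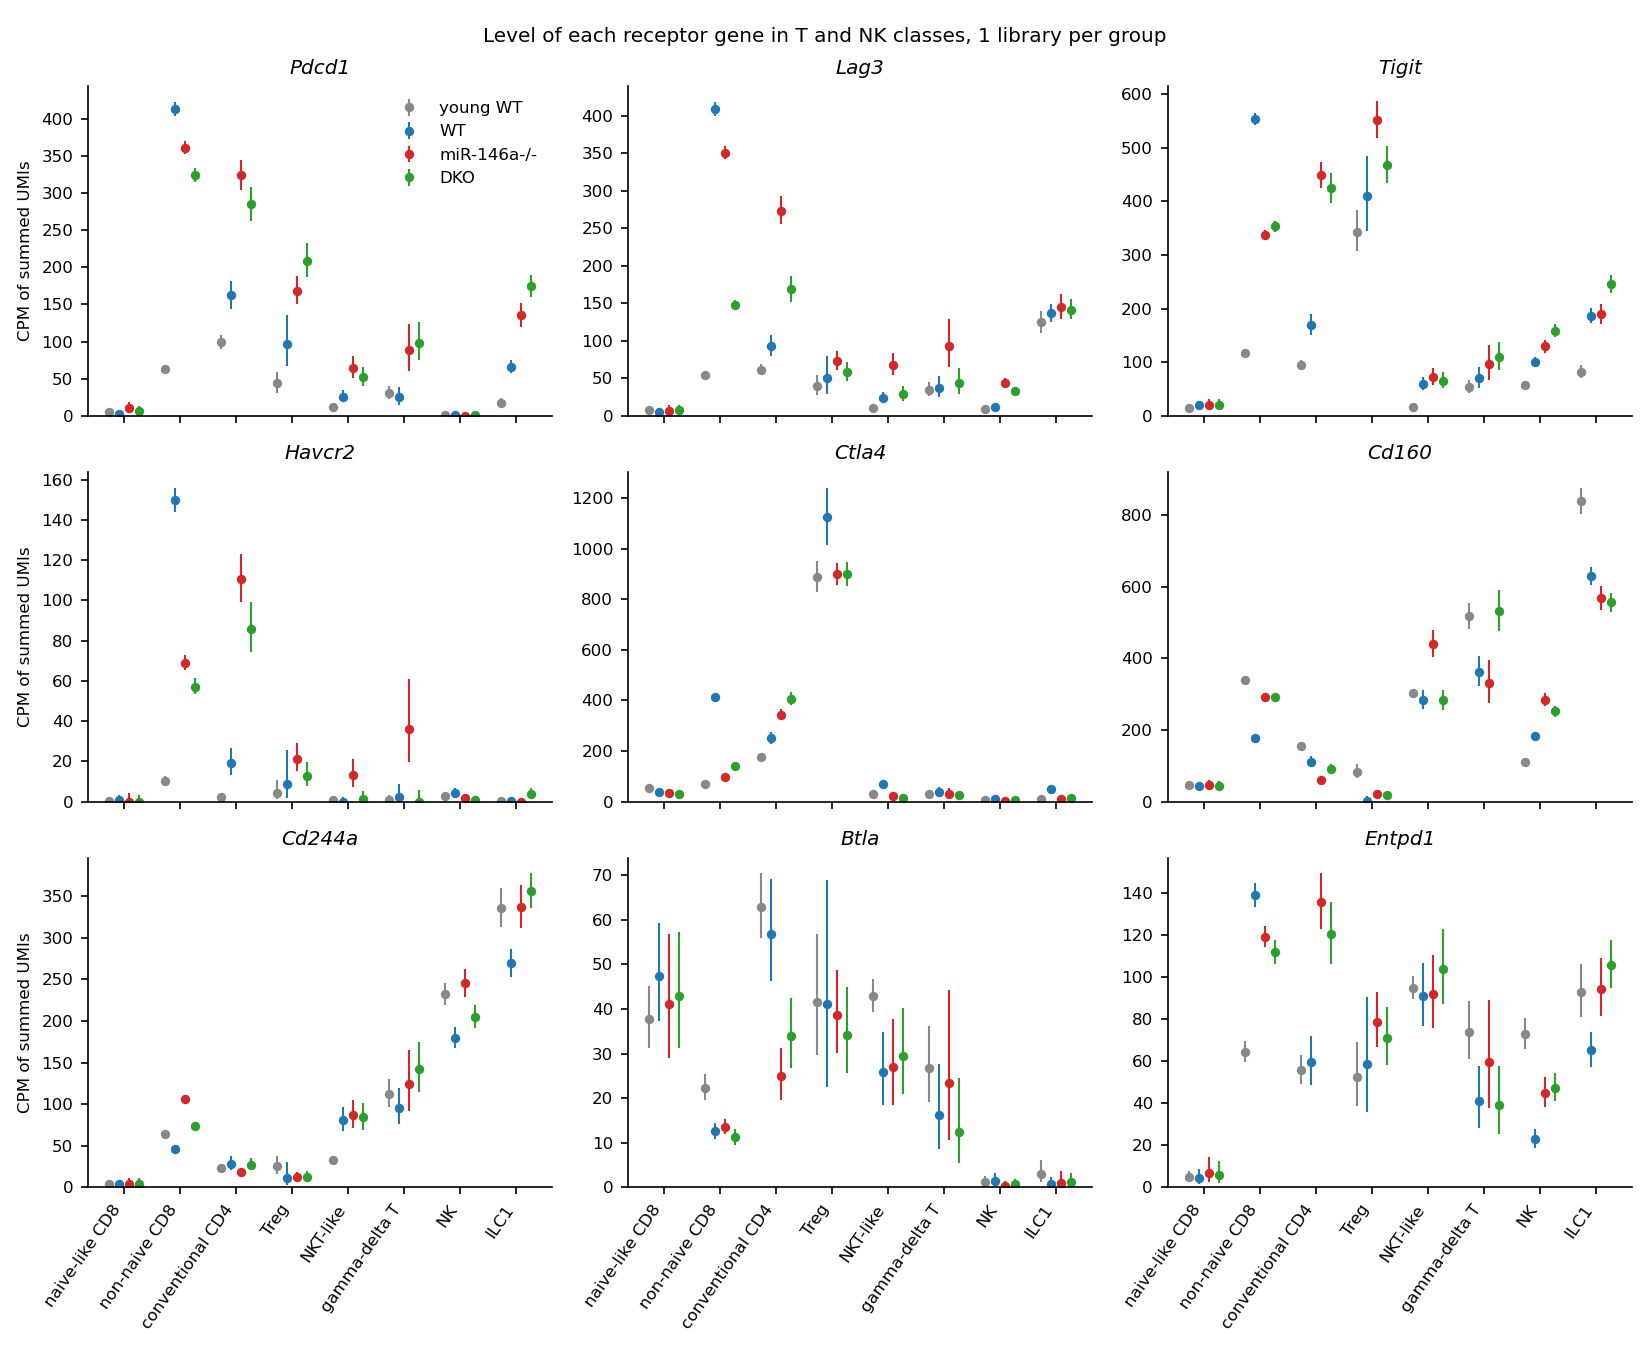
Level of each of the 9 genes (vertical axis, CPM of the summed UMIs of a class) in 8 T and NK classes (horizontal axis), 1 point per library with its exact 95% Poisson interval. In non-naive CD8 T cells Pdcd1 ran from 63.0 CPM in young WT to 413 CPM in WT, and Ctla4 in regulatory T cells stayed between 887 and 1123 CPM.

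Across the 8 classes the 9 genes fell into patterns of their own. Means over the 4 libraries of Pdcd1 ran from 290.4 CPM in non-naive CD8 T cells over 217 in conventional CD4 T cells, 129 in regulatory T cells (Treg), 98.3 in type 1 innate lymphoid cells (ILC1), 60.5 in gamma-delta T cells and 38.6 in NKT-like cells to 6.24 in naive-like CD8 T cells and 0.696 in NK cells. The ranges over libraries of neighbours in this order overlapped down to NKT-like cells, while naive-like CD8 T cells (2.49 to 10.0 CPM) lay below the NKT-like range (12.2 to 64.4) and above the NK range (0.279 to 1.33). NK cells thus had next to no Pdcd1, with 1 to 6 UMIs per library. ILC1, their resident relatives, reached 175 CPM in DKO mice.

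By the mean over libraries, Lag3 and Havcr2 were likewise led by non-naive CD8 T cells, with 240.2 and 71.7 CPM. Conventional CD4 T cells followed with 149 and 54.5 CPM. In miR-146a-/- and DKO mice, however, CD4 T cells had the higher Havcr2 (111 CPM in miR-146a-/- mice). For Lag3, ILC1 came next by the mean, with 137 CPM. They held the narrowest range of the higher classes, 125 to 145 CPM, above all Treg values (39.5 to 72.9 CPM). In young WT mice ILC1 had the most Lag3, against 61.1 CPM in CD4 and 53.8 CPM in non-naive CD8 T cells. Treg, gamma-delta T, NKT-like and NK cells followed with overlapping ranges and means of 55.1, 52.2, 32.5 and 24.1 CPM, above naive-like CD8 T cells at 6.67 CPM. Below the first 2 classes Havcr2 had means of at most 11.7 CPM (Treg), and gamma-delta T, NKT-like, NK, ILC1 and naive-like CD8 T cells followed with ranges that overlap.

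By the mean, Tigit and Ctla4 were led by Treg, in which both are known to be constitutive, with 443 and 953 CPM. In WT mice non-naive CD8 T cells (554 CPM) had more Tigit than Treg of any library. For Tigit the next classes were non-naive CD8 T cells (341 CPM), conventional CD4 T cells (285 CPM), ILC1 (176 CPM), NK cells (112 CPM), gamma-delta T cells (82.1 CPM) and NKT-like cells (53.5 CPM), each overlapping its neighbour, and naive-like CD8 T cells were last with 18.7 CPM. Treg stood apart for Ctla4: their lowest library, 887 CPM, lay above the highest of conventional CD4 T cells, 407 CPM, which came next with a mean of 294 CPM. Non-naive CD8 T cells had a mean of 182 CPM, with a range that overlaps that of CD4 T cells and lies above those below. Naive-like CD8, NKT-like, gamma-delta T cells and ILC1 had means of 38.6, 34.6, 32.3 and 22.4 CPM with overlapping ranges, and NK cells came last with 5.85 CPM, apart from them.

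Cd160 and Cd244a were instead highest in ILC1, with means of 649 and 325 CPM. All 4 ILC1 values of Cd160 (557 to 839.6 CPM) lay above those of gamma-delta T cells (332 to 533 CPM), the next class, whereas gamma-delta T, NKT-like (mean 327 CPM), non-naive CD8 T (275 CPM) and NK cells (208 CPM) overlapped in turn. Conventional CD4 T cells (105 CPM), naive-like CD8 T cells (44.4 CPM) and Treg (31.6 CPM) ended this order, the last pair overlapping and CD4 T cells overlapping NK cells. NK cells were next for Cd244a, with 179.9 to 245 CPM against 269.6 to 356 CPM in ILC1, followed by gamma-delta T (119 CPM), non-naive CD8 T (72.6 CPM) and NKT-like cells (71.6 CPM), and by conventional CD4 T cells (24.4 CPM), Treg (15.6 CPM) and naive-like CD8 T cells (4.37 CPM). Of these, NK and gamma-delta T cells, NKT-like and CD4 T cells, and Treg and naive-like CD8 T cells had ranges apart from each other, and the other neighbours overlapped.

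For Btla the order was nearly the reverse, with conventional CD4 T cells (44.7 CPM), naive-like CD8 T cells (42.3 CPM), Treg (38.9 CPM) and NKT-like cells (31.2 CPM) first and overlapping, gamma-delta T cells (19.7 CPM) and non-naive CD8 T cells (15.0 CPM) next, and ILC1 and NK cells last with 1.504 and 0.942 CPM. Entpd1 was spread most evenly, with means of 47.1 to 109 CPM in 7 classes whose neighbours overlap and 5.396 CPM in naive-like CD8 T cells. Outside T and NK cells, Btla was found in type 1 dendritic cells (183 to 260.2 CPM) as in B cells (191 to 272 CPM). Type 1 dendritic cells also carried Havcr2 (186 to 231 CPM). Plasmacytoid dendritic cells carried Lag3 (180.0, 291, 309 and 354 CPM, in 18 to 36 cells per library), and classical monocytes Cd244a (71.2 to 115 CPM).

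The first comparison asks what differs between treated 36-week-old and untreated 8-week-old WT mice. A gene counts below as up or down, or as having risen or fallen, when its CPM differ by at least 1.5-fold, and genes were compared only where 1 of both libraries reached 20 CPM and 20 UMIs. In non-naive CD8 T cells 6 of the 9 genes rose from young WT to WT, Havcr2 14.4-fold (11.9 to 17.6), Lag3 7.60-fold (6.97 to 8.30), Pdcd1 6.56-fold (6.06 to 7.12), Ctla4 5.89-fold (5.46 to 6.37), Tigit 4.69-fold (4.42 to 4.98) and Entpd1 2.15-fold (1.97 to 2.35). Cd160 and Btla fell, with log2 ratios of -0.94 (-1.01 to -0.87) and -0.82 (-1.10 to -0.55), and Cd244a had a log2 ratio of -0.49. Of 6620 genes compared in these cells, 4.88% were up and 4.21% down. The median log2 ratio was 2.23 over the 9 genes and 0.01 over all genes compared.

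Markers of other cells also differed here. The 7 myeloid markers, all found, with Lyz2 the most abundant, summed to 23.1, 54.5, 38.3 and 49.99 CPM in non-naive CD8 T cells, and the cycling genes Mki67 and Top2a to 159, 278, 166 and 237 CPM. All 5 hepatocyte markers were found, Trf the most abundant, with sums of 19.3, 12.2, 8.45 and 14.0 CPM. Monocytes and dendritic cells also carry Havcr2. Its log2 ratio of WT over young WT was 3.84, and 3.78 without cells holding a myeloid UMI. With no limit on myeloid UMIs in the gate it was 2.996 (2.79 to 3.20), and the part of other cells in the rise was not tested.

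In the 7 other classes the differences between young WT and WT mice were of several kinds. Without non-naive CD8 T cells, Pdcd1 was up in 4 of the 5 classes in which it could be compared, Tigit in 4 of 6, Lag3 in 2 of 5 and Ctla4 in 2 of 6. NKT-like cells had 5 of 8 genes up and 1 down, against 5.51% and 3.22% of all genes compared there, with Tigit at 15.9 and 60.2 CPM, Cd244a at 33.1 and 81.7 CPM and Lag3 at 10.5 and 23.3 CPM. In Treg, of which the WT library held only 41 cells, 1 of 8 genes was up and 2 down, where 6.84% and 15.3% of all genes were. In gamma-delta T cells 0 of 8 were up and 2 down, where 4.37% and 10.7% of all genes were. ILC1 had Pdcd1 at 17.3 and 66.1 CPM, Tigit at 82.1 and 187 CPM and Ctla4 at 12.2 and 51.6 CPM in young WT and WT. The Ctla4 level of B cells, given below, was not subtracted here. Conventional CD4 T cells had Tigit at 95.6 and 169 CPM and Pdcd1 at 98.8 and 162 CPM, with 3 of 8 genes up and 0 down against 3.66% and 3.25% of all genes. NK cells had 2 of 4 genes up and 1 down. Entpd1 stood at 73.0 and 22.8 CPM, a fall, and Cd160 at 111 and 182 CPM, a rise, both opposite to non-naive CD8 T cells. Tigit was the other gene up, as it was in non-naive CD8 T cells. In NK cells 3.89% of all genes were up and 2.31% down. In ILC1 3.51% and 4.47% of all genes were. From young WT to WT mice the myeloid markers went from 16.0 to 39.1 CPM in ILC1 and from 17.3 to 31.9 CPM in NK cells. In conventional CD4 T cells they went from 17.0 to 51.8 CPM and in Treg from 13.9 to 46.9 CPM. The cycling genes went from 67.3 to 120.1 CPM in ILC1 and from 98.2 to 302 CPM in NK cells. They went from 238 to 282 CPM in CD4 T cells and from 393 to 499 CPM in Treg. Hepatocyte markers went from 162 to 101 CPM in ILC1, and B cell markers from 215 to 118 CPM in CD4 T cells. The part of all these markers in the differences was not tested. In naive-like CD8 T cells 0 of 3 genes were up or down, where 3.32% and 2.63% of all genes were, too few to tell.

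Since Pdcd1, Tigit, Havcr2 and Ctla4 rose together, the 250 bases before their RefSeq starts are printed for the reader. The motifs searched for, on both strands, were the core of NFAT sites (GGAAA), an AP-1 site (TGANTCA), a site of the Nr4a family (AAAGGTCA) and a T-box site (TCACACC), all factors known in exhausted T cells. They were chosen after the levels had been seen. Taken from RefSeq with GRCm38.p6, the promoters at hand were 10, of 8 of the 9 genes, Lag3 not among them. Entpd1, which also rose, has an entry from chr19:40612116 with 0 NFAT cores and one from chr19:40659520 with 2. Its sequences are not printed. Capitals mark the NFAT core, or for Havcr2 the AP-1 motif, and all 4 sequences run 5′ to 3′ on the strand of the gene. They lie at chr1:94052554-94052803 (Pdcd1, minus strand), chr16:43664185-43664434 (Tigit, minus), chr11:46454681-46454930 (Havcr2, plus) and chr1:60908775-60909024 (Ctla4, plus).
Pdcd1: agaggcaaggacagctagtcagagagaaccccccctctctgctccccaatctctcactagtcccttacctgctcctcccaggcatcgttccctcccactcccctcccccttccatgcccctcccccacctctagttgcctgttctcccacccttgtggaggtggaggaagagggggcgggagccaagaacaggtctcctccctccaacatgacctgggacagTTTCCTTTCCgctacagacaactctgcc
Tigit: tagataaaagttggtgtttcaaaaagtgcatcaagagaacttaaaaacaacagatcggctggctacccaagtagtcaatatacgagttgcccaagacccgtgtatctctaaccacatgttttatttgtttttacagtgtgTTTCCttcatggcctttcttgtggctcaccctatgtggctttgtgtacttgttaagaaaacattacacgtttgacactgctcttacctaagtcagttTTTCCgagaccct
Havcr2: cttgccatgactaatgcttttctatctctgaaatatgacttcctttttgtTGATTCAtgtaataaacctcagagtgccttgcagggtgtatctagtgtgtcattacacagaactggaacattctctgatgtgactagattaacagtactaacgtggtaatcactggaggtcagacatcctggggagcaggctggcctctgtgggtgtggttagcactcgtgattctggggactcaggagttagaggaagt
Ctla4: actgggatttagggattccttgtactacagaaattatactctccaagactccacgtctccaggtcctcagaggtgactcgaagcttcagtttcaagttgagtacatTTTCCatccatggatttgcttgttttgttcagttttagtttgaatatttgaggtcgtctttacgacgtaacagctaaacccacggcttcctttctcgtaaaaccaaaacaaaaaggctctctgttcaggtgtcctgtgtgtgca

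Counted from 250 bases before to 50 after the start, the NFAT core was in 6 of the 10 promoters of the group, the AP-1 motif in 2, the T-box motif in 1 and the Nr4a motif in 0. Of all 32851 promoters of that length, 61.3% held the NFAT core, 7.81% the AP-1 motif, 3.98% the T-box motif and 1.51% the Nr4a motif. In Pdcd1 a pair of NFAT cores stand side by side on the strand opposite to the gene (TTTCC), and Tigit has 2 further apart. A match is a description of letters, not a site of binding.

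The next comparison asks what the loss of miR-146a goes with among treated mice. Fewer genes of all kinds differed in non-naive CD8 T cells: of 6534 compared, 1.56% were up and 3% down. Of the 8 checkpoint genes compared, 3 were down in miR-146a-/- relative to WT mice, Ctla4 with a log2 ratio of -2.08 (-2.16 to -2.01), Havcr2 with -1.12 (-1.22 to -1.02) and Tigit with -0.71 (-0.76 to -0.66). The 2 that were up were Cd244a, 2.32-fold (2.13 to 2.53), and Cd160, 1.64-fold (1.57 to 1.72). Pdcd1, Lag3 and Entpd1 had log2 ratios of -0.20, -0.22 and -0.22, and Btla was too low to compare. The 8 genes had a median log2 ratio of -0.22 and all genes one of -0.00. The fall of Tigit did not pass 1.5-fold when cycling cells (-0.54) or cells with any myeloid UMI (-0.57) were left out.

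In conventional CD4 T cells 5 of the 9 genes were up and 3 down in the same comparison, against 4.59% up and 6.73% down of 6868 genes compared there. The WT library held only 222 of these cells. Tigit and Havcr2, down in non-naive CD8 T cells, were up here, and Cd160 and Cd244a, up there, were down. Havcr2 stood at 19.1 CPM (13.2 to 26.7) in WT and 111 CPM (99.1 to 123) in miR-146a-/- mice, Tigit at 169 and 449 CPM, Lag3 at 92.8 and 273 CPM, Pdcd1 at 162 and 324 CPM and Entpd1 at 59.6 and 136 CPM, all 5 up. The genes down were Btla (56.8 and 25.0 CPM), Cd160 (111 and 60.7 CPM) and Cd244a (28.7 and 18.3 CPM), and Ctla4 had 249.8 and 343 CPM. A UMI of 2 or more of the 9 genes was found in 36.5% (30.1% to 43.3%) of 219 thinned CD4 T cells in WT and in 62.3% (57.4% to 67.0%) of 406 in miR-146a-/- mice, a difference of 25.8 percentage points (17.7 to 33.4). In young WT and DKO mice the shares were 23.3% and 57.7%. The 7 myeloid markers summed to 17.0, 51.8, 49.0 and 47.1 CPM and the cycling genes to 238, 282, 254 and 328 CPM in these cells, the B cell markers to 215, 118, 72.3 and 95.5 CPM, and their part in these differences was not tested. The Treg gate needs a Foxp3 UMI, so a Treg cell without one can be counted as a conventional CD4 T cell. Gated Treg numbered 41 in WT and 216 in miR-146a-/- mice, and the part of such cells was not tested either.

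Ctla4 was lower in miR-146a-/- than in WT mice beyond CD8 T cells. It was down in 2 of the 6 other classes compared, with ILC1 at 51.6 CPM in WT and 9.95 CPM in miR-146a-/- mice and NKT-like cells at 70.0 and 23.6 CPM. Of all genes, 4.11% were down in ILC1, 6.37% in NKT-like cells, 12.0% in gamma-delta T cells, 4.37% in Treg, 6.73% in conventional CD4 and 8.18% in naive-like CD8 T cells. B cells, examined after the other values had been seen, had 29.1 and 3.89 CPM, a log2 ratio of -2.90 (-3.81 to -2.11). Treg, with 1123 and 900.3 CPM, and conventional CD4 T cells did not share the fall. With the B cell level subtracted, an alternative also chosen after seeing the data, the log2 ratio in non-naive CD8 T cells was -2.04. The ILC1 and NKT-like levels are given without this subtraction. Pdcd1, in contrast, was up in all 5 other classes compared and Lag3 in 4 of 6. Of all genes, 4.59% were up in conventional CD4 T cells, 16.1% in Treg (only 41 WT cells), 4.89% in NKT-like cells, 8.78% in gamma-delta T cells (only 40 miR-146a-/- cells), 2.71% in NK cells and 2.62% in ILC1. ILC1 had Pdcd1 at 66.1 and 135 CPM, and NK cells had Lag3 at 11.3 and 43.5 CPM. From WT to miR-146a-/- mice the cycling genes went from 120.1 to 65.7 CPM in ILC1 and from 302 to 259 CPM in NK cells, and the myeloid markers from 39.1 to 34.8 CPM and from 31.9 to 24.2 CPM. Their part in these differences was not tested.

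The last comparison asks what the deletion of Ccl5 adds to the loss of miR-146a. In non-naive CD8 T cells 1.42% of 6486 genes were up and 0.725% down in DKO relative to miR-146a-/- mice. Of the 8 checkpoint genes compared, only Lag3 was down, with a log2 ratio of -1.24 (-1.32 to -1.17), and 0 were up. A further gene was down with both Cd8a and Cd8b1 required, without cycling cells and with the B cell level subtracted. Ctla4 had 1.45-fold the miR-146a-/- level (1.36 to 1.55), just under the limit, Cd244a a log2 ratio of -0.51 and the other 5 genes log2 ratios between -0.27 and 0.06. The median over the 8 genes was -0.12 and over all genes 0.01. Lag3 was also down in 3 further classes, 4 of 7 in all: conventional CD4 T cells (273 and 169 CPM in miR-146a-/- and DKO mice), NKT-like cells (67.7 and 28.6 CPM) and gamma-delta T cells (93.3 and 43.7 CPM), where 2.36%, 5.34% and 7.19% of all genes were down. ILC1, with 145 and 142 CPM, kept their level. Pdcd1 and Tigit were neither up nor down in any class compared here, 6 classes for Pdcd1 and 8 for Tigit.

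**Figure D2:**
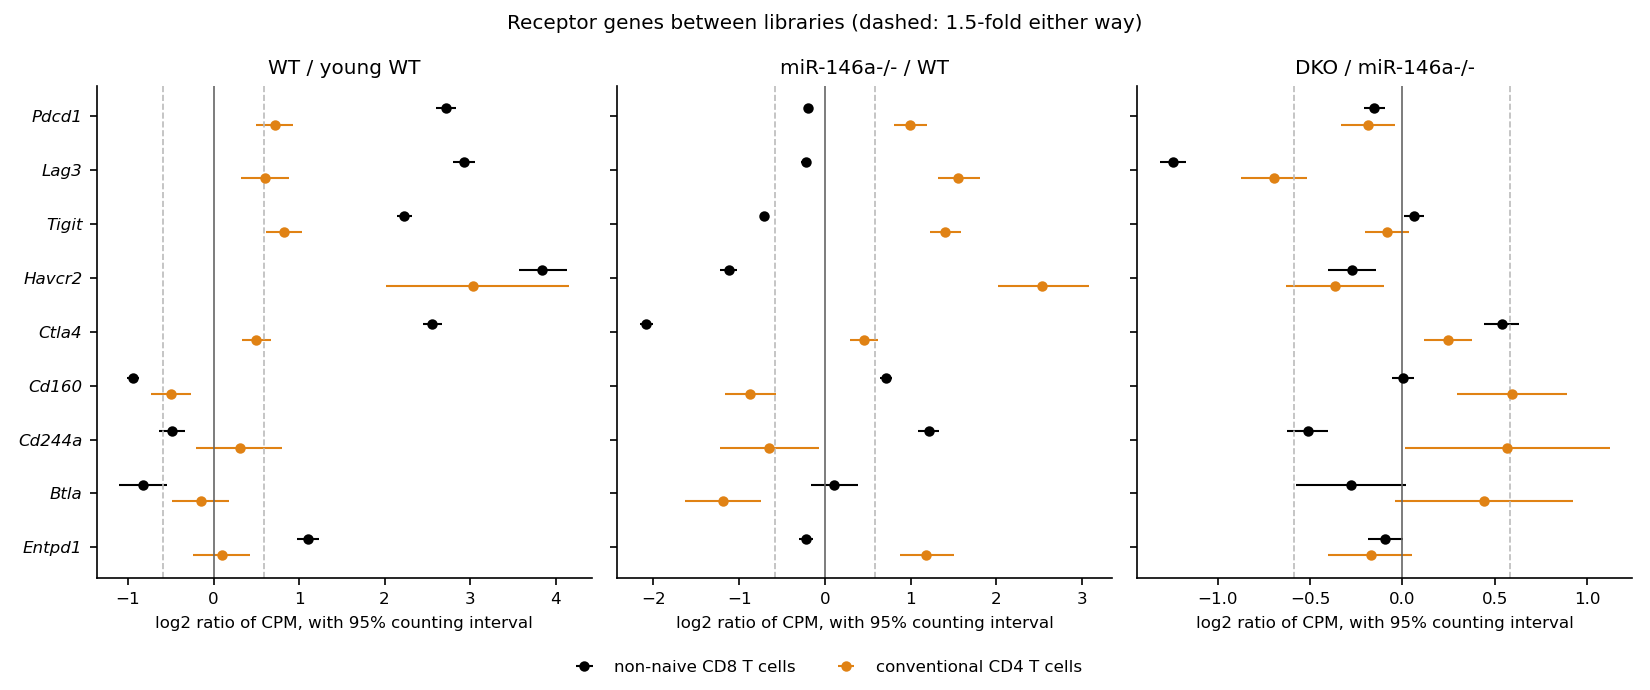
Log2 ratio of CPM between libraries (horizontal axis, with its 95% counting interval) for each gene (vertical axis) in non-naive CD8 T cells (black) and conventional CD4 T cells (orange), with dashed lines at 1.5-fold. Between miR-146a-/- and WT mice Havcr2 had log2 ratios of -1.12 in CD8 and 2.53 in CD4 T cells, and between DKO and miR-146a-/- mice Lag3 lay at -1.24 and -0.69.

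Turning to cells that hold several receptors, the share of thinned non-naive CD8 T cells with a UMI of 2 or more of the 9 genes was 37.4% (34.6% to 40.2%), 69.9% (67.8% to 72.0%), 64.5% (62.5% to 66.5%) and 63.1% (60.8% to 65.2%). WT exceeded young WT by 32.5 points (29.0 to 35.9). From WT to miR-146a-/- mice the difference was -5.36 points (-8.23 to -2.47). It fell within counting error with naive-like CD8 T cells included (-2.33 points, -5.20 to 0.547), without cells holding a myeloid UMI (-2.57 points, -6.07 to 0.977) and without cycling cells (-3.16 points, -6.65 to 0.375). From miR-146a-/- to DKO mice it was -1.47 points (-4.42 to 1.47), within counting error, but beyond it when thinned to 1000 UMIs (-6.33 points, -9.30 to -3.34) and when counted without Entpd1 and Btla (-3.47 points, -6.48 to -0.460). For 3 or more genes the shares were 15.9%, 52.6%, 45.8% and 37.6%, and the last difference, -8.27 points (-11.3 to -5.24), also exceeded counting error. Without thinning the shares with 2 or more were 71.4%, 88.8%, 86.4% and 87.3%. On average a thinned cell held 1.27, 2.63, 2.37 and 2.11 of the 9 genes, and the most found in a cell was 8, in WT and miR-146a-/- mice.

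Detection was not spread over cells as the product of the separate shares would have it. None of the 9 genes was found in 32.4%, 14.2%, 15.1% and 14.0% of thinned cells, where the product of the shares gives 23.8%, 3.41%, 5.29% and 7.63%. At the other end, 5 or more genes were found in 1.01%, 16.0%, 10.96% and 5.73% of cells, against 0.263%, 7.12%, 4.68% and 2.79% from the product. Cells without any of the genes and cells with many were thus both more frequent than the product. Cells with none had been deeper before thinning, with medians of 9321, 9911, 8723 and 7842 UMIs against 6164, 6924, 6575 and 5554 UMIs in cells with 3 or more.

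**Figure D3:**
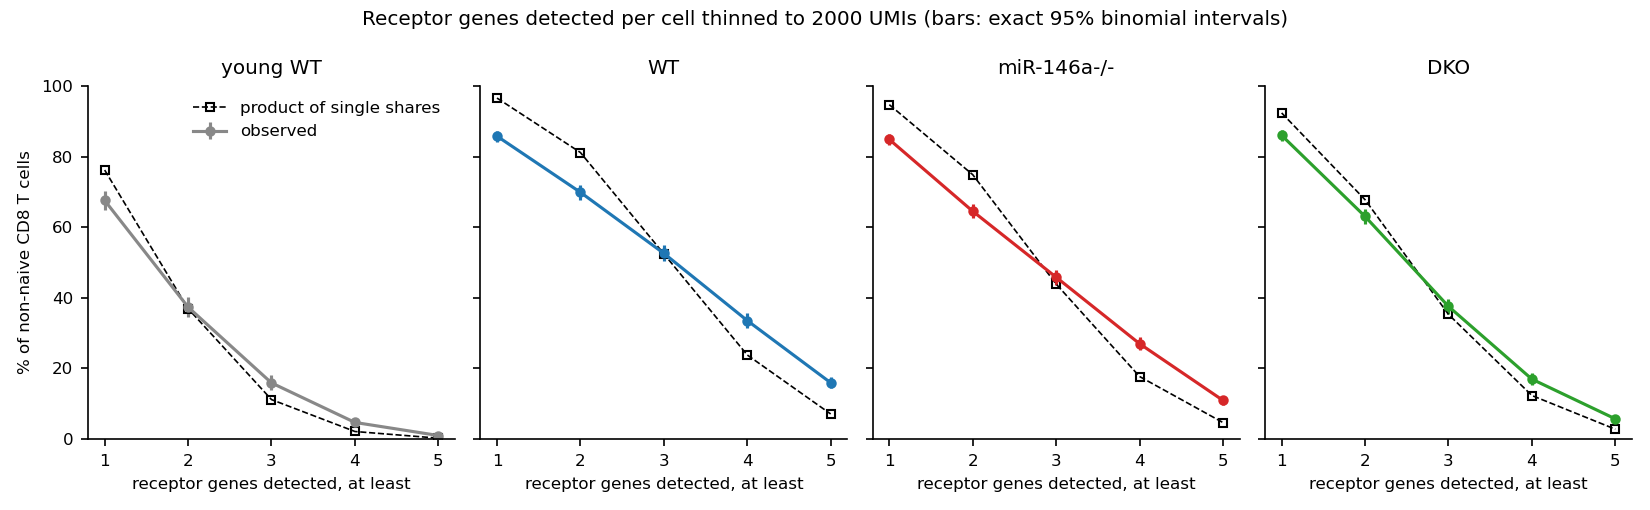
Share of thinned non-naive CD8 T cells (vertical axis, percent) with at least the given number of the 9 genes (horizontal axis), 1 panel per library, with exact 95% binomial intervals, and the share that the product of the separate shares gives (dashed). At 5 or more genes WT cells reached 16.0% against 7.12% from the product.

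The most frequent combination of 2 or more genes changed from library to library. It was Cd160 with Cd244a in young WT mice (48 cells, 4.04%), Pdcd1, Lag3, Tigit and Ctla4 together in WT mice (79 cells, 4.20%), Pdcd1, Lag3 and Tigit in miR-146a-/- mice (60 cells, 2.73%) and Pdcd1 with Tigit in DKO mice (95 cells, 4.99%). In WT mice the same 4 genes plus Havcr2 came next, with 61 cells (3.24%). Ctla4 thus dropped out of the leading combination in miR-146a-/- mice and Lag3 in DKO mice, the genes with the lowest ratios in those comparisons.

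Of the 36 pairs that 9 genes form, 17 were found together more often than the product of their shares in all 4 libraries, 11 of them beyond the counting interval in each, and 8 less often in all 4, none of them beyond the interval in each. This interval covers the observed number of cells with both genes only and takes the product as known. The median ratio of observed to product over the libraries was highest for Cd160 with Cd244a (1.80, from 1.38 to 2.37) and for Havcr2 with Ctla4 (1.80, from 1.499 to 2.43, with as few as 2.89 cells given by the product), followed by Lag3 with Havcr2 (1.68, from 1.64 to 4.16). Pdcd1 with Lag3 had 1.47 and Pdcd1 with Tigit 1.32. The lowest was that of Btla with Entpd1, 0.360, from 0.113 to 0.880, with as few as 6.82 cells given by the product. Cd160 and Ctla4, with a median of 0.696, were together less often than the product in all 4 libraries, in 3 of them beyond the interval.

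Cells with and without Pdcd1 were compared next, at 148, 852, 990 and 785 Pdcd1-positive thinned cells. In WT mice Ctla4 was found in 58.7% of positive and 30.4% of negative cells, in miR-146a-/- mice in 19.3% and 9.59%. The lower Ctla4 of miR-146a-/- mice was therefore present on both sides of the Pdcd1 split. Lag3 was found in 57.0% of positive and 25.3% of negative cells in miR-146a-/- mice and in 28.5% and 17.7% in DKO mice, so that it too was lower on both sides. Havcr2 and Tigit were more frequent in positive cells of every library, in WT mice with 34.5% against 11.7% for Havcr2 and 75.0% against 40.5% for Tigit. Cd160 was less frequent in positive cells in WT mice alone, with 14.7% against 27.5%, while the shares were 46.6% and 36.8% in young WT, 40.4% and 36.4% in miR-146a-/- and 36.3% and 34.0% in DKO mice. Cd244a was found in 15.5%, 5.99%, 24.2% and 13.1% of positive and 12.5%, 9.63%, 15.1% and 14.8% of negative cells, so that its direction differed between libraries.

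**Figure D4:**
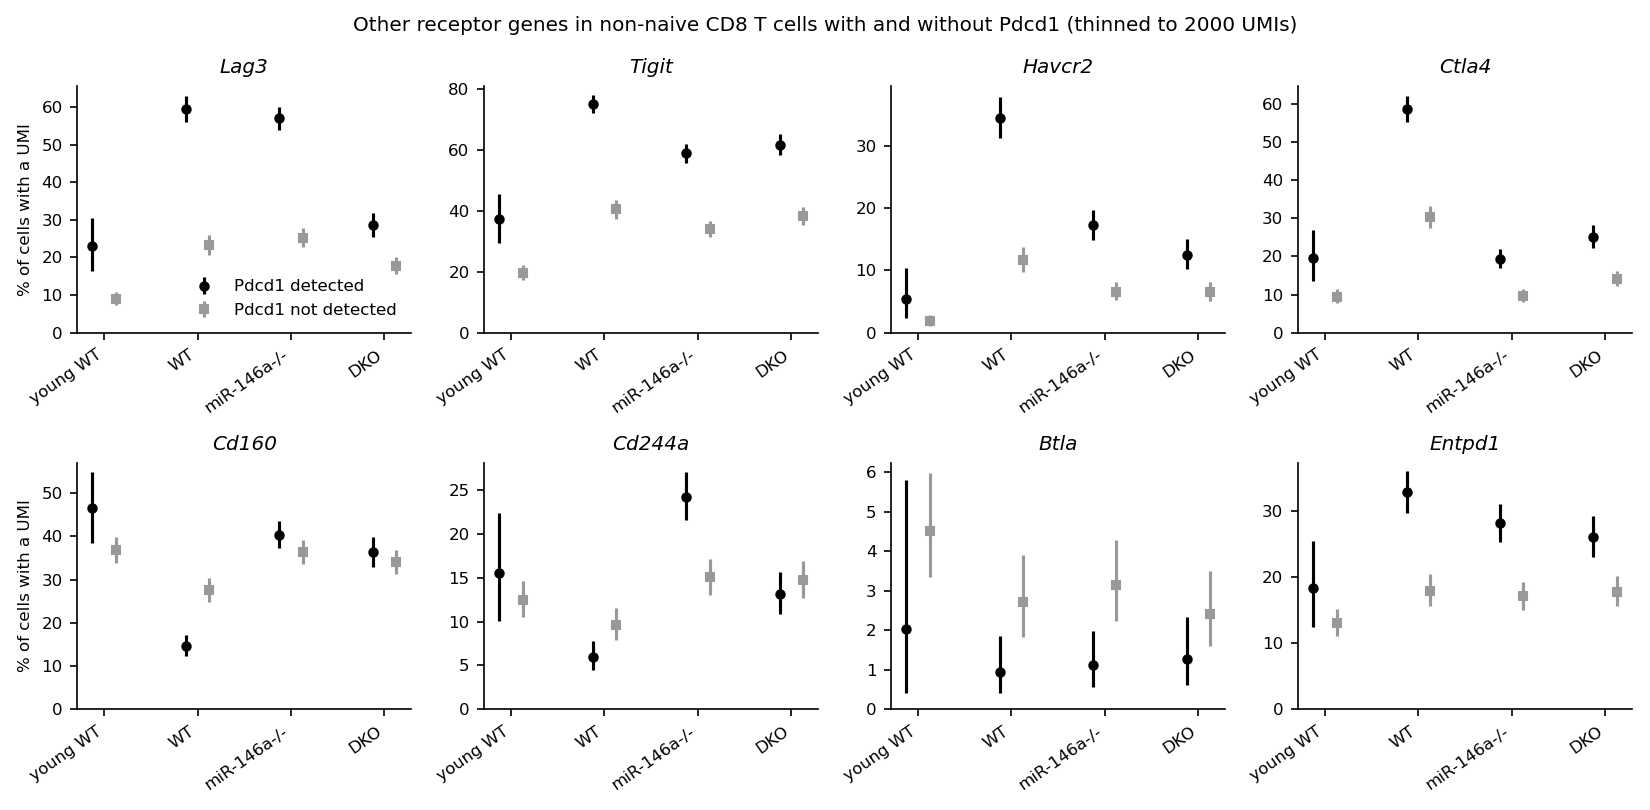
Share of thinned non-naive CD8 T cells with a UMI of each of the other 8 genes (vertical axis, percent) in Pdcd1-positive (black) and Pdcd1-negative (grey) cells of each library (horizontal axis), with exact 95% binomial intervals. In WT mice Ctla4 reached 58.7% of positive cells, in miR-146a-/- mice 19.3%.

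Other transcripts were then followed along the number of the 9 genes found in a cell. Folds compare cells with 2 or more of the genes to cells with none, and levels are followed up to cells with 3 or more. Genes of the gate that splits naive-like from non-naive CD8 T cells are not listed here, as their place is bound up with the gate. Among the 8 largest rises, by the lowest fold over the 4 libraries, were those of Cd200r1 (7.12- to 21.5-fold), Chn2, Rgs1, Ccl3, Cd38, Itgav and Litaf. Cd200r1, itself an inhibitory receptor, went in WT mice from 12.2 CPM in cells with none of the genes over 34.5 CPM with 1 and 67.3 CPM with 2 to 98.5 CPM with 3 or more. Rgs1, a regulator of chemokine receptor signals, went from 357 to 2448 CPM and the chemokine gene Ccl3 from 43.9 to 1161 CPM in the same cells. Cd38, an ectoenzyme known from exhausted T cells, rose 3.06- to 4.88-fold.

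Among the 8 largest falls were those of Gzmm, Nsg2, Cmah, Ly6c2 and Ms4a4c. Gzmm, which encodes a granzyme, went in WT mice from 116 CPM with none of the genes to 5.47 CPM with 2 or more and 2.01 CPM with 3 or more. Ly6c2, a marker of memory CD8 T cells, went from 1882 to 186 and 95.6 CPM in the same cells. Tox rose in all 4 libraries, 2.98- to 4.81-fold, in WT mice from 169.7 CPM over 372 and 578 to 837 CPM. Tcf7, which maintains the stem-like state of CD8 T cells, had in cells with 2 or more genes 0.150 to 0.420 of its level in cells with none. In WT mice it went from 311 CPM with none to 46.7 CPM with 2 or more and 25.0 CPM with 3 or more. From none to 3 or more genes, Maf ran from 23.0 to 367 CPM in WT mice and from 9.61 to 109.9 CPM in miR-146a-/- mice. Over the 4 libraries 2 or more genes over none gave 2.64- to 13.7-fold.

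**Figure D5:**
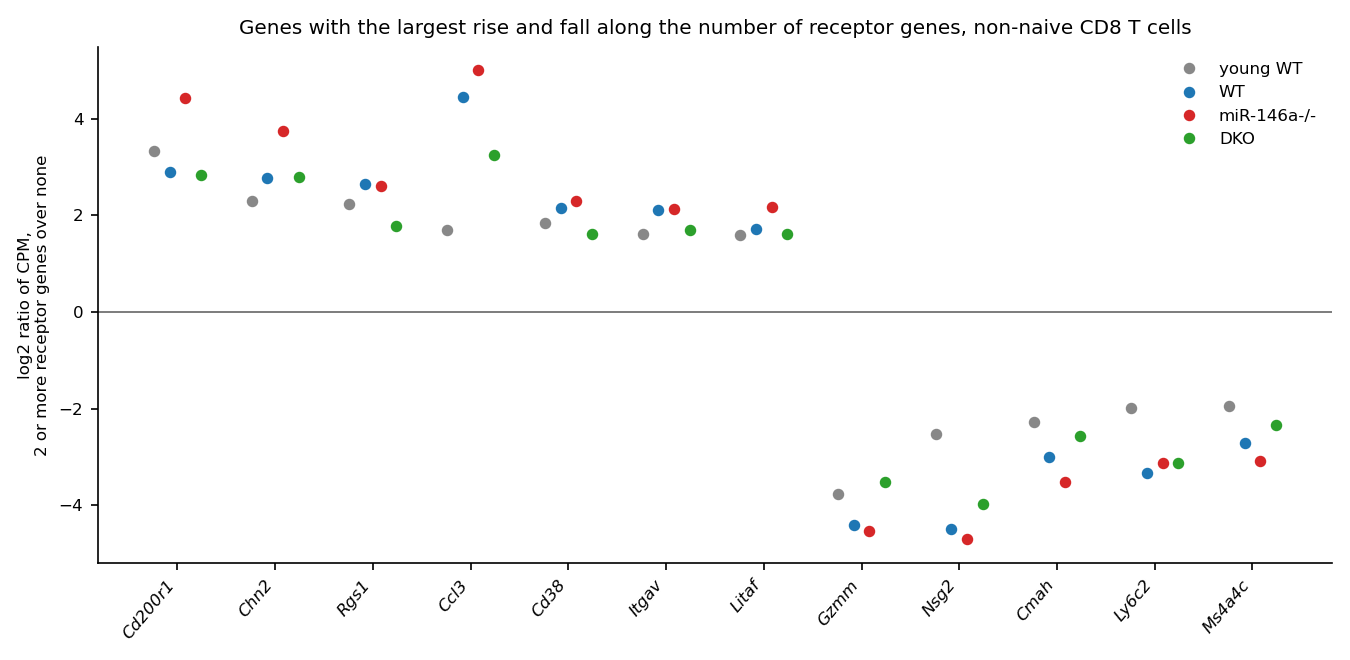
Log2 ratio of CPM in non-naive CD8 T cells with 2 or more of the 9 genes over cells with none (vertical axis) for genes among the 8 largest rises and the 8 largest falls, those of the naive gate not shown (horizontal axis), 1 point per library. Cd200r1 ranged from 7.12- to 21.5-fold higher.

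Regulators of the exhausted state, a list of 19 transcription factors, moved with the receptors in part. Between young WT and WT mice 12 of 19 were up and 2 down in non-naive CD8 T cells (4.88% and 4.21% of all genes), with a list median of 0.67 against 0.01 over all genes. Maf went from 41.0 to 223 CPM, Tox2 from 7.76 to 35.8 CPM, Prdm1, the gene of Blimp-1, from 22.8 to 78.5 CPM and Tox from 297 to 599 CPM. Tcf7 (272 and 115 CPM) and Id3 (37.7 and 18.1 CPM) were down. Between WT and miR-146a-/- mice 0 of 19 were up and 7 down (1.56% and 3% of all genes), with a median of -0.23 against -0.00. Nr4a3 (56.7 and 14.7 CPM), Maf (223 and 67.9 CPM), Nr4a1 (141 and 45.9 CPM) and Irf4 (28.6 and 14.5 CPM) had the lowest ratios. Nr4a1 and Nr4a3 are immediate targets of the antigen receptor. An alternative chosen after seeing the data left out all cells with a UMI of either. It kept 951 of 1880 thinned WT cells and 1755 of 2199 thinned miR-146a-/- cells. The numbers of checkpoint genes up and down in this comparison were then 2 and 3. The part of antigen receptor signals in these differences was not tested. Tox stood at 599 and 736 CPM, a log2 ratio of 0.30. In DKO relative to miR-146a-/- mice 1 of 17 was up, Ikzf2 (106 and 159.6 CPM), and 1 down, Nr4a2 (441 and 232 CPM), against 1.42% and 0.725% of all genes, with a median of -0.03 against 0.01.

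Effector molecules, a list of 13 genes, were up in 8 and down in 2 between young WT and WT mice (4.88% and 4.21% of all genes), with a median of 0.96 against 0.01. Ccl3 (155 and 661 CPM), Ccl4 (742 and 2860.0 CPM) and Gzmk (296 and 945 CPM) were up, the last a gene of the naive gate, while Tnf (39.5 and 21.6 CPM) and Xcl1 (490.3 and 296 CPM) were down. In miR-146a-/- relative to WT mice 1 was up, Gzma (1528 and 2540 CPM), and 1 down, Ccl4 (2860.0 and 1558 CPM), against 1.56% and 3% of all genes, with a median of -0.12 against -0.00. In DKO relative to miR-146a-/- mice Xcl1 was up (200.1 and 308 CPM), Gzma (2540 and 1365 CPM) and the deleted Ccl5 (30533 and 179.7 CPM) were down, against 1.42% up and 0.725% down of all genes, and the median was -0.25 against 0.01.

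Of the 17 ligands and partners of these receptors, 10 were abundant enough to compare in non-naive CD8 T cells between young WT and WT mice, 1 of them up and 2 down (4.88% and 4.21% of all genes), with a median of -0.14 against 0.01. Cd86 was up (16.7 and 30.6 CPM), and Cd226, the activating receptor that competes with TIGIT, was down (277 and 146 CPM), as was Nt5e, the ectoenzyme that follows CD39 in making adenosine (25.5 and 15.0 CPM). In miR-146a-/- relative to WT mice 1 of 9, Cd86, was down (30.6 and 20.3 CPM) and 0 were up, against 3% and 1.56% of all genes, with a median of -0.02 against -0.00. In DKO relative to miR-146a-/- mice 0 of 9 were up or down (1.42% and 0.725% of all genes), with a median of -0.04 against 0.01. Classical monocytes and B cells also carry Cd86, with means of 118 and 92.2 CPM. The myeloid markers in non-naive CD8 T cells summed to 23.1, 54.5, 38.3 and 49.99 CPM in the 4 libraries. The part of other cells in the Cd86 differences was not tested. By the mean over libraries, Cd274, the gene of the PD-1 ligand PD-L1, was highest among all 16 classes in mature dendritic cells (763, 321, 129.8 and 352 CPM, from only 3, 24, 7 and 17 cells), though in miR-146a-/- mice neutrophils (276 CPM) and macrophages (165 CPM) had more. Cd86 was highest by the mean in type 1 dendritic cells (193 to 294 CPM), though in young WT mice mature dendritic cells had more (311 CPM). Fgl1, a liver-made ligand of LAG-3, had next to no UMIs in these immune cells, with a mean of at most 0.267 CPM, in Treg.

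Of the 10 signalling molecules, 9 were compared in each comparison. Between young WT and WT mice 3 were up and 1 down (4.88% and 4.21% of all genes), with a median of 0.08 against 0.01. Sh2d1a, the gene of the adaptor SAP that binds Cd244a (179 and 385 CPM), Sh2d2a (244 and 473 CPM) and Ptpn11, the gene of the phosphatase SHP2 that PD-1 recruits (59.1 and 92.1 CPM), were up, and Ptpn6, the gene of the related SHP1, was down (175 and 115 CPM). In the other 2 comparisons 0 of 9 were up or down, where 1.56% and 3% and then 1.42% and 0.725% of all genes were, with medians of 0.11 against -0.00 and -0.08 against 0.01.

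Likeness of pattern was measured by Pearson's r of log2(CPM + 1) over 30 points, the T and NK classes of each library with at least 50 cells. The points share libraries and classes of very unequal make-up, so r is a description, for which 8212 genes were compared with each of the 9. Tox was the gene most like Lag3 (r = 0.94) and was also among the 3 most like Tigit (0.87), whose closest was Atpif1 (0.90). Cd101, known from terminally exhausted CD8 T cells, was next to Gm16033 (0.89) among those most like Pdcd1, with 0.88. The closest genes were Gm11454 for Havcr2 (0.92), Mif4gd for Ctla4 (0.93), Cd7 for Cd160 (0.94), Efhd2 for Cd244a (0.97), St6gal1, a sialyltransferase of B and naive T cells, for Btla (0.96) and the interleukin receptor gene Il12rb1 for Entpd1 (0.96). Among the 9 genes themselves r was highest for Cd160 with Cd244a (0.85), Lag3 with Tigit (0.84) and Lag3 with Pdcd1 (0.79). The lowest was that of Btla with Cd244a, -0.81.

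By position the 9 genes do not form a cluster. In the GENCODE M21 annotation of GRCm38, Pdcd1 (ENSMUSG00000026285, chr1:94038305-94052553), Ctla4 (ENSMUSG00000026011, chr1:60887000-60915832) and Cd244a (ENSMUSG00000004709, chr1:171559193-171609746) lie far apart on chromosome 1. Tigit (ENSMUSG00000071552, chr16:43648867-43664146) and Btla (ENSMUSG00000052013, chr16:45224315-45257670) share chromosome 16. Lag3 (ENSMUSG00000030124) lies at chr6:124904361-124911705, Havcr2 (ENSMUSG00000020399) at chr11:46454935-46481255, Cd160 (ENSMUSG00000038304) at chr3:96798763-96829351 and Entpd1 (ENSMUSG00000048120) at chr19:40612366-40741602. Entpd1 overlaps 1 other counted gene on its own strand, so which of the genes some of its reads came from is uncertain. The other 8 overlap no counted gene on their own strand.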

How the data were processed

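The authors aligned the reads of 4 libraries of CD45+ liver cells to mm10 with Cell Ranger (7.0.1 in the file headers, 5.0.0 in the paper) and deposited a raw UMI count for every gene in every cell, without normalization. From these counts, cells were kept at 600 to 6000 features and no more than 5% of UMIs from mitochondria, and classes were gated on UMIs of marker genes. The UMIs of a class were summed per library and given as CPM, which rests on 10435459 to 17628901 UMIs per library in non-naive CD8 T cells, with exact Poisson intervals. Ratios had the exact interval of a ratio of 2 Poisson counts. Shares of cells had exact binomial intervals after thinning to 2000 UMIs (random start 1). No doublet caller was run; the upper limit on features and the limits on B cell and myeloid UMIs in the gates stood in for it. Python 3.11.15 (numpy 2.4.6, scipy 1.17.1, pandas 2.3.3, matplotlib 3.10.9) and R 4.3.3 with edgeR 4.0.16 were used, and the steps were tested on simulated data.

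Genes were named by rule, the 9 receptors everywhere. From 4 lists (ligands and partners, signalling molecules, regulators, effector molecules) some, not all, of the genes past 1.5-fold or with the highest level were named. So were some of the 3 with the highest r among genes with at least 20 CPM in a point. Along the number of receptors, genes came from the 8 largest rises and falls (those of the naive gate not listed) among genes with at least 50 CPM. The members and lists were chosen with earlier results of these data known. Where a gene is named beyond the rule (Fgl1), its value had been seen.

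The alternatives were 10% of mitochondrial UMIs, 200 features as the lower bound, leaving out the 5% of cells with the most UMIs, cells with a myeloid UMI, cycling cells or shared barcodes, no limit on myeloid UMIs, wider or narrower CD3 and CD8 gates, naive-like cells included, TMM factors, a mean over cells, no minimum level, thinning to 1000 or 4000 UMIs or none, 3 or more receptors, and counting without Entpd1 and Btla. Leaving out Nr4a1- or Nr4a3-positive cells and subtracting the B cell level were added after seeing the data.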

Additional observations from a re-analysis of the deposited data

Results flagged for a closer look

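In several genes the difference between the same libraries had opposite directions in non-naive CD8 T cells and in another class, in both beyond counting error and 1.5-fold. There were 7 such cases among 131 comparisons of a receptor gene between non-naive CD8 T cells and another class, and 311 among 126636 comparisons of all genes (0.246%). None of the differences between classes was tested. From WT to miR-146a-/- mice, Tigit had a log2 ratio of 1.41 (1.23 to 1.59) in conventional CD4 T cells and -0.71 in non-naive CD8 T cells. Havcr2 had 2.53 (2.02 to 3.09) in CD4 T cells, from 34 and 332 UMIs in WT and miR-146a-/- mice, and -1.12 in CD8 T cells. Cd160 had -0.87 (-1.17 to -0.57) and Cd244a -0.65 (-1.22 to -0.07) in CD4 T cells, against 0.71 and 1.21 in CD8 T cells. From young WT to WT mice, Cd160 had 0.71 (0.56 to 0.87) in NK cells and -0.94 in CD8 T cells. Entpd1 had -1.68 (-2.00 to -1.36) in NK cells and -0.84 (-1.45 to -0.28) in gamma-delta T cells, against 1.11 in CD8 T cells.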

How the results depend on the processing

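The 14 ratios of single genes past 1.5-fold in non-naive CD8 T cells were recomputed under up to 15 alternatives each. All 209 values kept their direction and 207 stayed past 1.5-fold; the exceptions were Tigit in miR-146a-/- relative to WT mice, with -0.57 without cells holding a myeloid UMI and -0.54 without cycling cells. Subtracting the B cell level gave no value for Btla in any of the 3 comparisons, and the number of genes down between young WT and WT mice was then 1 in place of 2, for that reason. It was 3 with Nr4a1- or Nr4a3-positive cells left out (added after seeing the data, as was the subtraction) and with a mean over cells. The log2 ratio of Havcr2 between young WT and WT mice, 3.84, was 2.996 with no limit on myeloid UMIs. The number down from miR-146a-/- to DKO mice was 2 in place of 1 with both Cd8a and Cd8b1 required, without cycling cells and with the B cell level subtracted. The share with 2 or more genes was recomputed under 16 alternatives. Its difference between WT and young WT mice, 32.5 points, was 36.7 with both Cd8a and Cd8b1 required, 27.9 thinned to 4000 UMIs, 17.4 not thinned and 36.7 for 3 or more genes. From WT to miR-146a-/- mice, -5.36 points became -2.33 with naive-like cells included and -2.37 not thinned, and its interval held 0 without cells with a myeloid UMI (-2.57, -6.07 to 0.977), without cycling cells (-3.16, -6.65 to 0.375) and with naive-like cells included (-5.20 to 0.547). From miR-146a-/- to DKO mice, -1.47 points became -6.33 (-9.30 to -3.34) thinned to 1000 UMIs, -3.47 (-6.48 to -0.460) without Entpd1 and Btla and -8.27 for 3 or more genes, and had the other sign, within counting error, at 4000 UMIs (1.47) and not thinned (0.855). Apart from the Btla case the cause was not tested. At 2000 UMIs a cell without a UMI of a gene may still express it, and a UMI may come from free RNA or a doublet, so shares are not shares of expressing cells.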
